A study of Mus musculus with 15 samples.

Results

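The miR-30 family was followed in whole mouse lung as 7 of the 1424 mature miRNAs in the deposited table, chosen by name. They are mmu-miR-30a-5p, mmu-miR-30b-5p, mmu-miR-30c-5p, mmu-miR-30d-5p and mmu-miR-30e-5p, from the 5p arm of their hairpins, and the 3p-arm strands mmu-miR-30a-3p and mmu-miR-30e-3p, where mmu stands for mouse and is mostly left off in what follows. All 7 passed the filter on low values. A miRNA hairpin is cut by Dicer into a short duplex. One strand of it is usually loaded into an Argonaute protein and pairs with messenger RNAs through its seed, bases 2 to 8, and the other strand is mostly degraded. The 5p strands of the family are known for holding back epithelial-to-mesenchymal transition, with Snai1 among their targets, and connective tissue growth factor, and they are abundant in lung epithelium and endothelium as well as in many other cells.

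The study set 2 genotypes against 2 treatments. The groups were R213G bleomycin (n = 4), R213G PBS (n = 4), WT bleomycin (n = 4) and WT PBS (n = 3), 15 libraries in all. R213G mice were homozygous for the R213G form of EC-SOD, the antioxidant enzyme of the extracellular space, a form known for binding the matrix less tightly, on the same C57BL/6 background as the WT mice. Each mouse received 100 uL into the trachea, either bleomycin at 1 U/mL, a DNA-damaging drug that injures the lung, or phosphate-buffered saline (PBS) without it. Lungs were taken 7 days later, flushed with PBS through the heart, and the mice are labelled as 11 weeks old. Mice of both sexes went into the groups, without a label for the sex of a library. The labels do not say how the lungs of a group relate to cages or days, so p-values measure the spread between these libraries. Each library also carries a serial tag number of unstated meaning. R213G libraries hold a lower run of 8 tags and WT libraries a higher run of 7, so genotype and tag range cannot be told apart. In R213G the lower and the upper tag block of 4 each hold 2 bleomycin and 2 PBS libraries, with the bleomycin tags first in each block. In WT the bleomycin tags precede the PBS tags. Treatment and tag order therefore cannot be told apart in WT or within an R213G tag block.

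The mature sequences show what the members share and how little separates some of them. RefSeq (GRCm38.p6) held a sequence for 5 of the 7 members, written here 5′ to 3′ with the seed in capitals.
mmu-miR-30a-5p: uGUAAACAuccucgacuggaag
mmu-miR-30e-5p: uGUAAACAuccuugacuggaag
mmu-miR-30c-5p: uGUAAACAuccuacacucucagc
mmu-miR-30a-3p: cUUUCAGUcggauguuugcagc
mmu-miR-30e-3p: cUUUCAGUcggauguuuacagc
The 3 5p strands carry the seed GUAAACA and the 3p strands carry UUUCAGU, so the strands of a hairpin would pair with different targets. Counted from 1 at the 5′ end, miR-30a-5p and miR-30e-5p differ at 1 of 22 positions, C13U, and miR-30a-3p and miR-30e-3p at 1 of 22, G18A. A read trimmed before such a position cannot be assigned to either, and the rule for counting such reads is not stated, so the split of reads between miR-30a and miR-30e is uncertain. From miR-30a-5p, miR-30c-5p differs at 5 of the 22 positions compared (C13A, G14C, G18C, G19U and A20C). Among the miRNAs of the table with a RefSeq sequence, 4 have the seed GUAAACA, the fourth being miR-384-5p.

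The hairpins of miR-30a and miR-30e are shown because both of their arms are members. The mature 5p and 3p strands are in capitals.
Mir30a: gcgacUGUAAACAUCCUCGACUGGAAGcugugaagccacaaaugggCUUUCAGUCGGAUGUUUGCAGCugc
Mir30e: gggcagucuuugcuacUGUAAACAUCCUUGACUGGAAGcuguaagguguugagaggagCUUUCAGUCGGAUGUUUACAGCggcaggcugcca
In GRCm38.p6, Mir30a lies at chr1:23272269-23272339 on the plus strand, and Mir30c-2 lies 19.361 kb further on at chr1:23291701-23291784, within an exon of the lincRNA gene Gm27028. Mir30e, at chr4:120772606-120772697 on the minus strand, and Mir30c-1, at chr4:120769534-120769622, are 2.983 kb apart in introns of Nfyc, which encodes a subunit of the CCAAT-binding factor NF-Y. The mature miR-30c-5p is the same from Mir30c-1 and Mir30c-2, so its reads cannot be assigned to a locus. The genes of miR-30b and miR-30d also neighbour each other. The antisense miRNA miR-30f is annotated on the plus strand over Mir30e. It lay between 0.03 and 2.56 on the log2 scale across the 15 libraries, far under the miR-30e strands, and it was singled out after its values were seen. Whether the counting used strand is not stated.

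The deposited values are taken, from the values themselves, as the log2 of 1 plus a count equalized between libraries, and all levels and log2 differences are on that scale. RPKM appears in the name the authors gave the table, and whether the values were divided by length is not stated. Such a division would shift a miRNA's level by about the same amount in every library, which touches shares and the order of levels but hardly the differences between groups. The family makes up a large share of lung miRNA. The 7 members summed to 11.6% ± 1.03 (SD, n = 4) of the equalized counts in R213G bleomycin lungs and 11.8% ± 0.410 (SD, n = 4) in R213G PBS lungs, and to 10.9% ± 0.724 (SD, n = 4) in WT bleomycin lungs and 12.1% ± 1.34 (SD, n = 3) in WT PBS lungs. The ranges overlap in each genotype, with 10.8% to 13.0% in R213G bleomycin against 11.5% to 12.4% in R213G PBS, and 10.2% to 11.8% in WT bleomycin against 10.6% to 13.2% in WT PBS. These sums were not tested.

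The members span a wide range of levels. Over the 15 libraries mmu-miR-30a-5p averaged 20.40 ± 0.21 (SD), ranking between 3 and 6 among all miRNAs of a library, and it held 53.2% to 63.1% of the family's counts. It was followed by miR-30d-5p at 19.13 ± 0.32, miR-30c-5p at 17.56 ± 0.18, miR-30e-5p at 16.86 ± 0.17, miR-30b-5p at 16.63 ± 0.24, miR-30a-3p at 14.96 ± 0.25 and miR-30e-3p at 12.60 ± 0.25 (SD, n = 15 each). The order held in all 15 libraries at every step except that from miR-30e-5p to miR-30b-5p. There the gap averaged 0.23 ± 0.21 (SD, n = 15), ran from -0.04 to 0.60 and was not tested. In 13 of the 15 libraries miR-30e-5p was the higher. It was above in 4 of 4 R213G bleomycin, 3 of 4 R213G PBS, 4 of 4 WT bleomycin and 2 of 3 WT PBS libraries. Small RNA libraries capture some sequences more readily than others, so the order is one of recovered counts. Both 3p members were scarcer than the 5p strand of their own hairpin in every library.

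**Figure D1:**
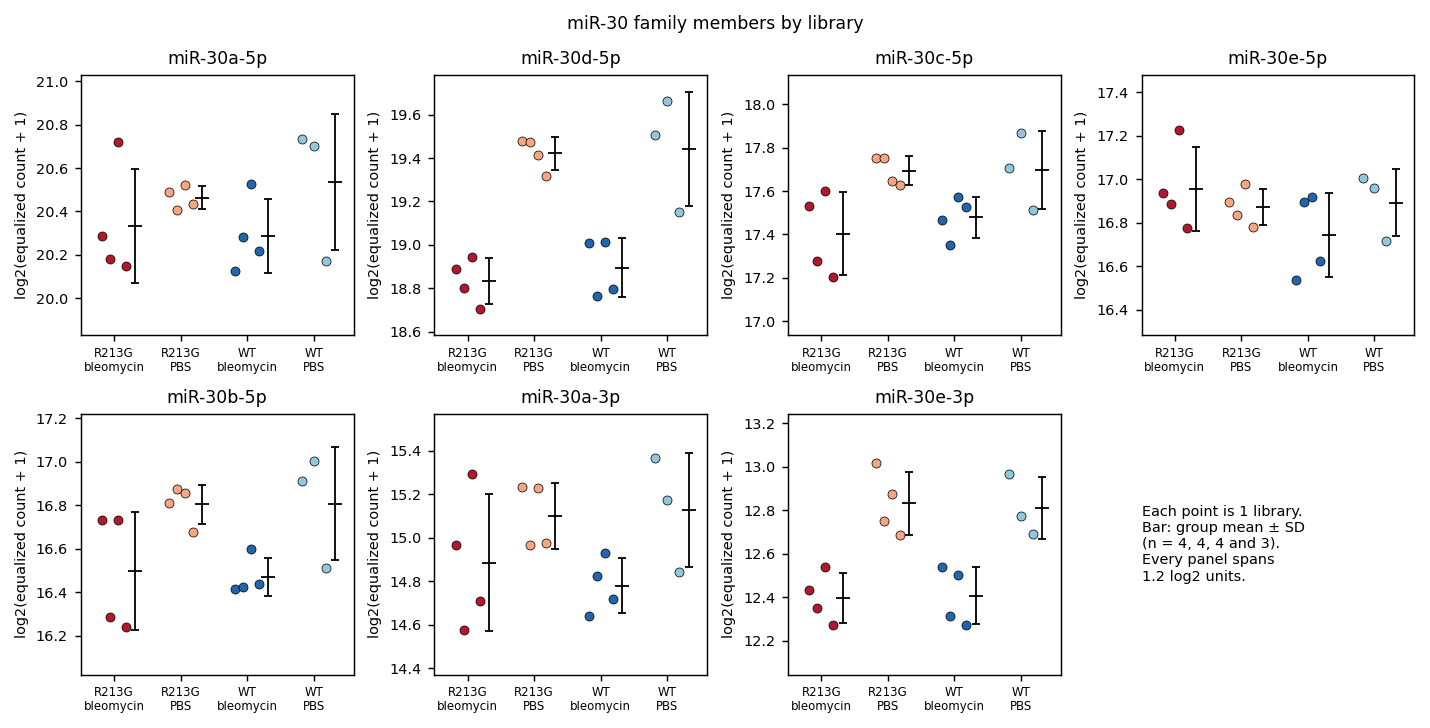
Log2 of 1 plus the equalized count (y axis) of each of the 7 members, with 1 point per library in the 4 groups and a bar for the group mean ± SD. The bleomycin and PBS libraries of R213G do not overlap for miR-30d-5p, miR-30e-3p and miR-30c-5p, and those of WT do not overlap for miR-30d-5p and miR-30e-3p. Bleomycin libraries lie wholly below PBS libraries for 17.4% of all tested miRNAs in R213G and 13.6% in WT.

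Bleomycin against PBS asks which members differ in the injured lung, in R213G and in WT mice. Of the 7 members, 3 fell after bleomycin in R213G lungs (miR-30d-5p, miR-30e-3p and miR-30c-5p) and 2 fell in WT lungs (miR-30d-5p and miR-30e-3p), and 0 rose in either (limma, adjusted p under 0.05 over all 818 tested miRNAs). Among all tested miRNAs, 19.8% fell and 22.2% rose in R213G (42.1% called in all), and 10.3% fell and 16.4% rose in WT (26.7% called in all). The median log2 difference of the members was -0.29 in R213G and -0.34 in WT, beside 0.05 in each for all tested miRNAs. With library medians set equal instead, 148 miRNAs rose and 199 fell in R213G (182 and 162 as deposited), and 110 rose and 121 fell in WT (134 and 84 as deposited). In whole lung, fewer cells of a type and less miRNA per cell cannot be told apart. The members' counts lean on single libraries. Without R213G bleomycin replicate 3, the highest of its group for 6 of the 7 members, 5 members fell in R213G, and without WT PBS replicate 3, the lowest of its group for all 7, 5 fell in WT. Without WT PBS replicate 1 only miR-30d-5p fell in WT. Over all tested miRNAs, leaving out 1 library gave 289 to 342 calls in R213G and 167 to 251 in WT, in either direction.

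The most abundant member that fell was miR-30d-5p, a 5p strand known in pancreatic beta cells for promoting insulin gene expression. In the 4 R213G bleomycin libraries mmu-miR-30d-5p stood at 18.89, 18.80, 18.94 and 18.70, against 19.48, 19.47, 19.42 and 19.32 in the 4 R213G PBS libraries. In WT it stood at 19.01, 18.76, 19.01 and 18.80 in the bleomycin libraries, against 19.51, 19.66 and 19.15 in the PBS libraries. Every bleomycin library lay below every PBS library of its genotype, the closest being WT PBS replicate 3, at 19.15. Among all tested miRNAs, 17.4% in R213G and 13.6% in WT had all bleomycin libraries below all PBS libraries. The log2 difference was -0.59 ± 0.11 (SE, adjusted p = 0.0005 by limma) in R213G, a fold of 0.666, and -0.54 ± 0.11 (SE, adjusted p = 0.00215) in WT, a fold of 0.686. Within R213G it was -0.53 in the lower and -0.64 in the upper tag block. Across scalings it ranged from -0.72 to -0.33 in R213G and from -0.66 to -0.45 in WT, and the call held. In the authors' deposited table the q-value of the parametric test was 0.00813 in R213G and 0.285 in WT, and that of the rank test was 0.109 in R213G and 0.223 in WT.

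The scarcest member, mmu-miR-30e-3p, fell as well. It stood at 12.43, 12.35, 12.54 and 12.27 in R213G bleomycin libraries, against 13.02, 12.75, 12.88 and 12.69 in R213G PBS libraries, and differed by -0.44 ± 0.10 (SE, adjusted p = 0.00317 by limma). In WT it stood at 12.54, 12.32, 12.50 and 12.27 after bleomycin, against 12.97, 12.78 and 12.69 after PBS, and differed by -0.40 ± 0.11 (SE, adjusted p = 0.0126). The groups did not overlap in either genotype, although the gaps were narrow: the highest bleomycin library was at 12.54 in each, and the lowest PBS library was at 12.69 in each. The WT call did not hold when WT PBS replicate 1 was left out (-0.33, adjusted p = 0.0746). The R213G values were -0.46 in the lower and -0.41 in the upper tag block. In the authors' deposited table the parametric q-value was 0.0416 in R213G and 0.181 in WT, and the rank test's was 0.109 in R213G and 0.223 in WT.

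The 5p strand of the same hairpin, mmu-miR-30e-5p, did not pass in either genotype. Its R213G bleomycin libraries stood at 16.93, 16.88, 17.23 and 16.77, against 16.90, 16.83, 16.98 and 16.78 in R213G PBS libraries, a log2 difference of 0.083 with a 95% confidence interval from -0.16 to 0.32. In WT the values were 16.54, 16.90, 16.92 and 16.62 after bleomycin, against 17.00, 16.96 and 16.71 after PBS, a difference of -0.15 with an interval from -0.41 to 0.11. The groups overlap in each genotype. The R213G value depends on the scaling: with equal library medians it was -0.051 (adjusted p = 0.778), and with quantile normalization it was 0.30 and passed (adjusted p = 0.0138).

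The other 5p members had negative differences in both genotypes. For mmu-miR-30c-5p, the product of both Mir30c genes, the values were 17.53, 17.28, 17.60 and 17.20 in R213G bleomycin libraries, against 17.75, 17.75, 17.64 and 17.63 in R213G PBS libraries. The groups did not overlap, with 17.60 against 17.63 at the nearest, and the log2 difference was -0.29 ± 0.10 (SE, adjusted p = 0.0299 by limma). That call was lost without R213G bleomycin replicate 2 or 4 or R213G PBS replicate 1 or 2 (adjusted p from 0.0718 to 0.108), without the filter (0.0629), without the intensity trend (0.0638) and with quantile normalization (-0.18, adjusted p = 0.125). In the authors' deposited table its R213G q-value was 0.177 by the parametric and 0.109 by the rank test. Its R213G difference was -0.13 in the lower and -0.45 in the upper tag block. In WT the difference of -0.22 ± 0.11 (SE) did not pass (adjusted p = 0.158).

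In all 7 members both R213G bleomycin libraries of the lower tag block stood above both of the upper block. For mmu-miR-30b-5p, whose gene neighbours that of miR-30d, these values were 16.73 and 16.73 in the lower block and 16.29 and 16.24 in the upper. The R213G PBS libraries stood at 16.68 to 16.87. In WT the bleomycin libraries, at 16.41, 16.42, 16.60 and 16.44, lay around the lowest PBS library, with PBS values of 16.91, 17.00 and 16.51. The groups overlap in both genotypes. The difference was -0.31 in R213G (adjusted p = 0.0643), or -0.10 in the lower and -0.51 in the upper tag block, and -0.34 in WT (adjusted p = 0.0805). With a term for the R213G tag block in the fit it passed in R213G (adjusted p by limma 0.0353). It also passed without R213G bleomycin replicate 1 (-0.39, adjusted p = 0.0328) or 3 (-0.39, adjusted p = 0.0297) and without WT PBS replicate 3 (-0.49, adjusted p = 0.013). Array weights gave -0.37 in R213G, which passed (adjusted p = 0.0121). The scalings moved it both ways. With equal library medians it was -0.44 in R213G, which passed (adjusted p = 0.0301), and -0.46 in WT, which did not (adjusted p = 0.052). With quantile normalization it shrank to -0.041 in R213G (adjusted p = 0.815) and -0.17 in WT (adjusted p = 0.361).

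The dominant member, miR-30a-5p, stood at 20.29, 20.18, 20.72 and 20.15 in R213G bleomycin libraries, against 20.49, 20.41, 20.52 and 20.43 in R213G PBS libraries. Replicate 3 of the R213G bleomycin group was the highest of these 8 libraries and the other 3 were the lowest. The difference of -0.13 had a 95% confidence interval from -0.42 to 0.16, and it was 0.084 with quantile normalization. It was -0.0036 in the lower and -0.25 in the upper tag block. In WT the difference was -0.25 (interval from -0.56 to 0.07, adjusted p = 0.23). Without WT PBS replicate 3, at 20.17 against 20.73 and 20.70 in the other libraries of its group, it was -0.43 (adjusted p = 0.0312). The 3p strand of that hairpin, mmu-miR-30a-3p, differed by -0.22 in R213G (adjusted p = 0.245) and -0.35 in WT (adjusted p = 0.11). It was -0.35 in R213G (adjusted p = 0.0454) and -0.49 in WT (adjusted p = 0.0314) on leaving out R213G bleomycin replicate 3 and WT PBS replicate 3.

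**Figure D2:**
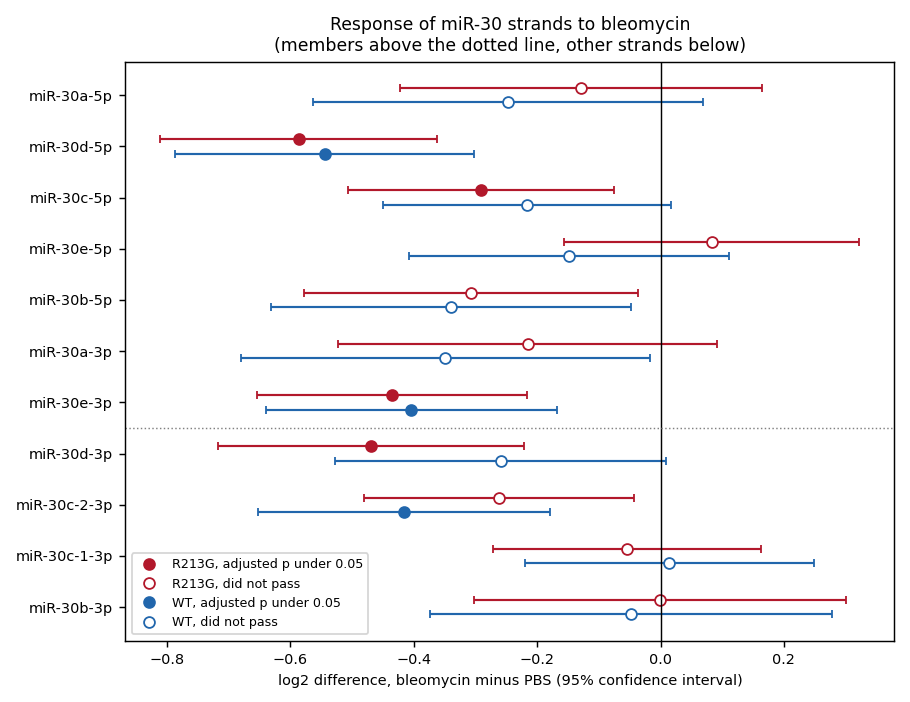
Log2 difference, bleomycin minus PBS (x axis), with its 95% confidence interval for the 7 members and the 4 other miR-30 strands, in R213G (red) and WT (blue), with filled points where the adjusted p was under 0.05; the intervals themselves are not adjusted for the number of miRNAs. The intervals of miR-30d-5p and miR-30e-3p lie below 0 in both genotypes, and those of miR-30e-5p include 0 in both.

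The other strands of the miR-30 hairpins and miR-384-5p, which shares the seed, are not members. Of these 5, 1 fell and 4 did not pass in each genotype, where 19.8% of all tested miRNAs fell in R213G and 10.3% in WT. In R213G miR-30d-3p fell, at 11.58, 11.35, 11.42 and 11.26 after bleomycin against 11.93, 11.92, 11.80 and 11.83 after PBS (log2 difference -0.47 ± 0.12 (SE), adjusted p = 0.00462 by limma). All 4 bleomycin libraries were below the PBS libraries, as for its 5p partner. In WT its difference was -0.26 (adjusted p = 0.143), or -0.43 without WT PBS replicate 3 (adjusted p = 0.0103). In WT miR-30c-2-3p fell, at 11.36, 11.63, 11.67 and 11.69 after bleomycin against 12.19, 11.94 and 11.88 after PBS (-0.42 ± 0.11 (SE), adjusted p = 0.011), a call that rested on WT PBS replicate 1 (-0.32 and adjusted p = 0.07 when it was left out). In R213G its difference was -0.26 (adjusted p = 0.0519). The strand that only Mir30c-1 makes, miR-30c-1-3p, differed by -0.054 in R213G and 0.014 in WT, and miR-30b-3p by -0.0012 in R213G and -0.048 in WT. The log2 value of miR-384-5p was low, from 1.55 to 4.67 over the 15 libraries.

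**Figure D3:**
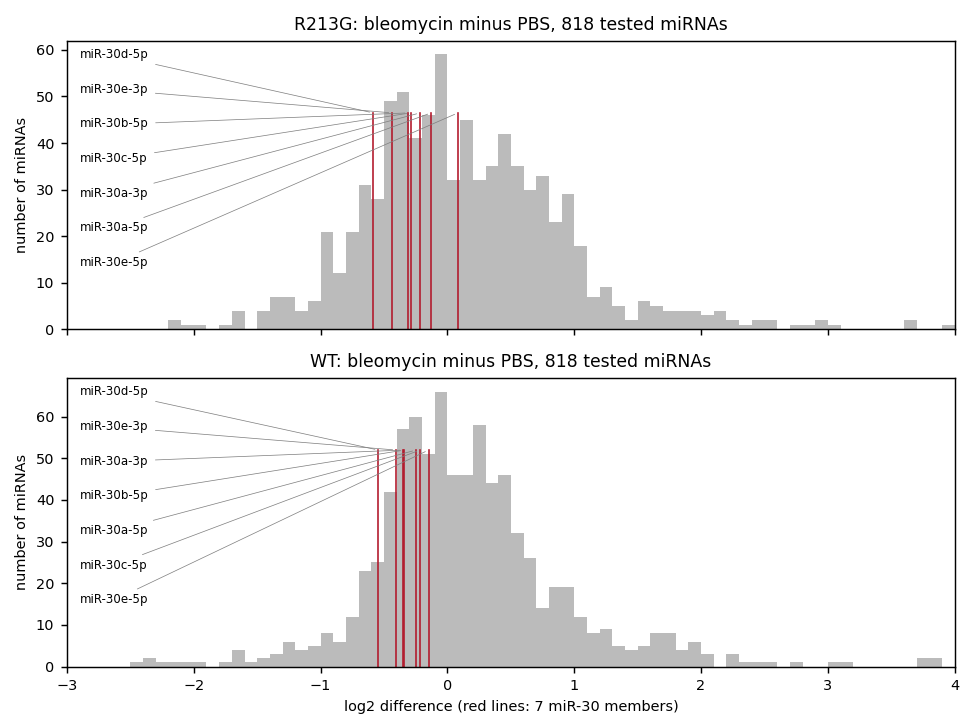
Number of tested miRNAs (y axis) by log2 difference, bleomycin minus PBS (x axis), in R213G above and WT below, with a red line for each of the 7 members. The members lie between -0.59 and 0.083 in R213G and between -0.54 and -0.15 in WT, well inside the spread of the 818 tested miRNAs.

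Because members of 1 library share its depth and scaling, 5 log2 differences between members were taken within each library and compared by exact two-sided permutation tests of the bleomycin and PBS labels within genotype (2450 permutations). The p-values were adjusted over the 5 differences. The 3p strand of miR-30e was lower against its 5p strand after bleomycin. Their log2 gap was 4.50, 4.53, 4.69 and 4.50 in R213G bleomycin libraries, against 3.88, 4.08, 4.10 and 4.09 in R213G PBS libraries. In WT it was 3.9997, 4.58, 4.42 and 4.35 after bleomycin, against 4.04, 4.18 and 4.02 after PBS. The R213G groups are far apart, while in WT replicate 1 of the bleomycin group lay below all 3 PBS libraries. The gap was wider after bleomycin by 0.39 over both genotypes (exact permutation p = 0.00245, adjusted p = 0.00612), by 0.52 in R213G and by 0.26 in WT, and whether the genotypes differ in this was not tested. Within WT alone, with only 4 libraries against 3, it did not pass (exact permutation p = 0.171, adjusted p = 0.381). In R213G it was wider by 0.60 in the lower and 0.43 in the upper tag block. For miR-30a, whose strands differ from those of miR-30e at 1 position each, the gap was wider by 0.094, which did not pass (exact permutation p = 0.0816, adjusted p = 0.102). It averaged 5.45 ± 0.12 (SD, n = 4) in R213G bleomycin and 5.36 ± 0.10 (SD, n = 4) in R213G PBS libraries, and 5.51 ± 0.061 (SD, n = 4) in WT bleomycin and 5.41 ± 0.11 (SD, n = 3) in WT PBS libraries.

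The neighbours miR-30d-5p and miR-30b-5p came closer in level after bleomycin. The log2 excess of miR-30d-5p over miR-30b-5p was 2.16, 2.51, 2.21 and 2.47 in R213G bleomycin libraries, against 2.67, 2.60, 2.56 and 2.64 in R213G PBS libraries. In WT it was 2.59, 2.34, 2.41 and 2.36 after bleomycin, against 2.60, 2.66 and 2.64 after PBS. No bleomycin library reached a PBS library of its genotype, though WT bleomycin replicate 1, at 2.59, came close to the lowest PBS value of 2.60. The excess was lower after bleomycin, at -0.24 over both genotypes (exact permutation p = 0.00163, adjusted p = 0.00612), -0.28 in R213G and -0.21 in WT. Within WT alone, with only 4 libraries against 3, it did not pass (exact permutation p = 0.0571, adjusted p = 0.286). In R213G it was -0.43 in the lower and -0.13 in the upper tag block. In the family's own makeup, miR-30d-5p held 18.4% to 22.4% of the counts in R213G bleomycin libraries, against 25.8% to 27.8% in R213G PBS libraries, and 20.9% to 25.5% in WT bleomycin libraries, against 24.8% to 27.0% in WT PBS libraries. The R213G ranges are apart and the WT ranges overlap.

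Against miR-30c-5p, which shares the Nfyc locus in part, miR-30e-5p was 0.22 higher after bleomycin over both genotypes (exact permutation p = 0.0282, adjusted p = 0.0469). The value was 0.37 in R213G and 0.068 in WT, and the difference between the genotypes was not tested. In R213G the bleomycin libraries stood at -0.60, -0.39, -0.37 and -0.43, against -0.86, -0.92, -0.67 and -0.85 in PBS libraries, with no overlap. In WT bleomycin libraries spread from -0.93 to -0.45, around the PBS range of -0.91 to -0.70. The call was lost on leaving out any of 10 of the 15 libraries (adjusted p up to 0.101). The difference between miR-30a-5p and miR-30c-5p was 0.065 higher and did not pass (exact permutation p = 0.411, adjusted p = 0.411).

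**Figure D4:**
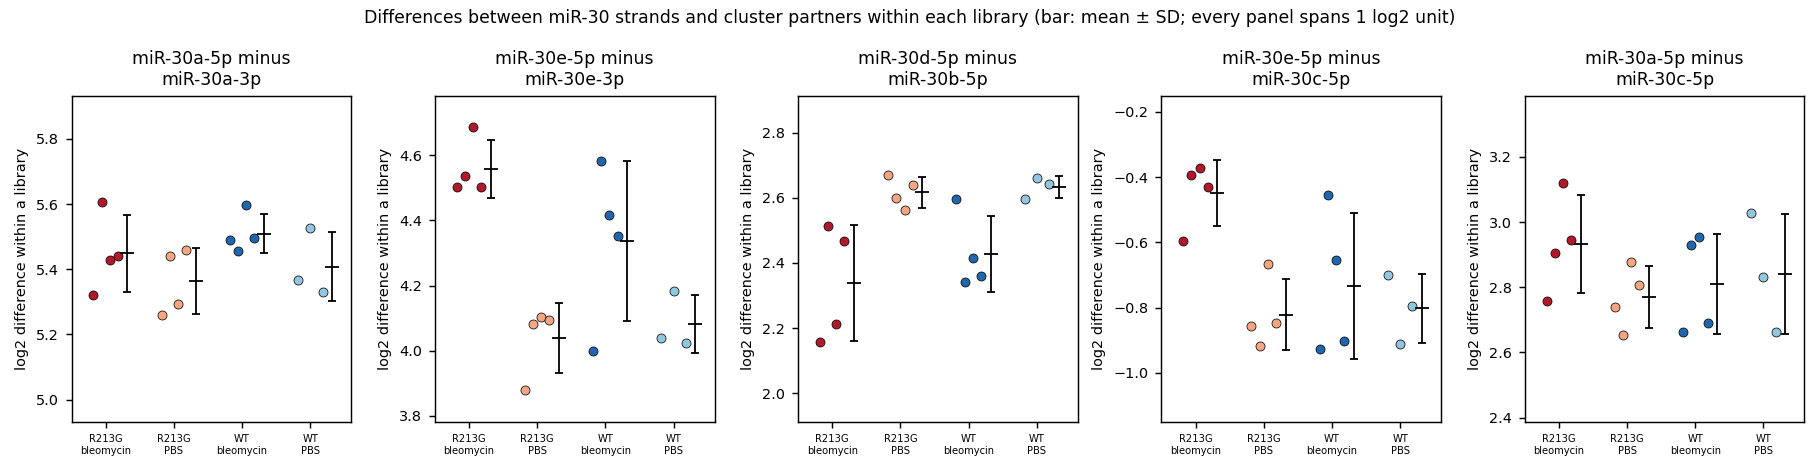
Log2 difference between strands of a hairpin or between cluster partners within a library (y axis), with 1 point per library in the 4 groups and a bar for the mean ± SD. The gap between the miR-30e strands is at 4.50 or more in all 4 R213G bleomycin libraries and at 4.10 or less in all 4 R213G PBS libraries, and miR-30d-5p minus miR-30b-5p is lower after bleomycin in both genotypes.

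R213G against WT asks whether the EC-SOD variant goes with another miR-30 level, in injured or in uninjured lung. By limma 0 of the 7 members passed after bleomycin and 0 after PBS, 0 had an unadjusted p under 0.05, and 0% of all tested miRNAs were called in either. Over all miRNAs, 97 after bleomycin and 44 after PBS had an unadjusted p under 0.05, and the calls after bleomycin numbered 2 with array weights and 1 without WT bleomycin replicate 1. After bleomycin the members' differences ran from -0.076 to 0.21, with 95% confidence intervals between -0.29 and 0.45, and after PBS from -0.072 to 0.022, with intervals between -0.39 and 0.30. The member farthest from 0 was miR-30e-5p after bleomycin, at 16.93, 16.88, 17.23 and 16.77 in R213G against 16.54, 16.90, 16.92 and 16.62 in WT. The groups overlap, and the difference of 0.21 did not pass (adjusted p = 0.503). The genotype by bleomycin interaction, with 0% of all miRNAs called, passed for 0 members (unadjusted p under 0.05 for 0 members and for 65 of all 818). The members' estimates ran from -0.075 to 0.23, with 95% confidence intervals between -0.39 and 0.59. None of the 5 within-library differences passed between genotypes (exact permutation within treatment, adjusted p from 0.446 to 0.738).

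The 5 miRNAs outside the family whose centred values lay closest to the mean profile of the 5p members, over the 15 libraries and among 275 miRNAs with a mean above log2 8, were miR-26b-5p, miR-24-2-5p, miR-203-3p, miR-29c-3p and miR-194-5p. Their root mean square distance from it was 0.079 to 0.11 log2 units, beside a median of 0.29 for the 275. Among the members themselves it was 0.063 for miR-30b-5p and 0.17 for miR-30d-5p. Both are part of the mean profile, which draws their distances down, so these are not on a par with those of the 5 outside miRNAs. As bleomycin minus PBS these 5, picked for their likeness and so given without a test, differed by -0.39 to -0.35 in R213G and by -0.35 to -0.20 in WT.

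Other miRNAs known for restraining epithelial-to-mesenchymal transition or matrix genes were taken as a list of 14, chosen with earlier results of these data known, of which 7 are also on the epithelial marker list and 1 on the striated muscle list. In R213G 10 fell, 0 rose and 4 did not pass, where 19.8% of all tested miRNAs fell and 22.2% rose. In WT 6 fell, 0 rose and 8 did not pass, where 10.3% of all tested miRNAs fell and 16.4% rose. The median of the 14 listed miRNAs was -0.38 in R213G and -0.33 in WT. Those with the smallest p were miR-26a-5p (-0.84 in R213G, -0.58 in WT), the muscle miRNA miR-133a-3p (-2.18 in R213G, -1.52 in WT) and the basal epithelial miR-205-5p (-1.90 in R213G, -1.28 in WT), with adjusted p by limma up to 0.0162.

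Cell type miRNAs moved with bleomycin too. All 9 listed epithelial, both endothelial, all 5 leukocyte, all 4 erythroid and all 4 striated muscle miRNAs were above 0 in every library. For comparison, 19.8% of all tested miRNAs fell and 22.2% rose in R213G, and 10.3% fell and 16.4% rose in WT. Of the epithelial ones 7 fell in R213G and 4 in WT, though their summed share overlapped between treatments, at 1.51% to 1.65% in R213G bleomycin against 1.58% to 1.78% in R213G PBS, and 1.47% to 1.71% in WT bleomycin against 1.51% to 1.74% in WT PBS. Of the endothelial ones, miR-126a-3p fell in R213G (-0.41, adjusted p = 0.0188 by limma) and miR-126a-5p did not pass, and neither passed in WT. They summed to 4.49% to 6.18% in R213G bleomycin against 4.54% to 5.31% in R213G PBS, and 5.15% to 5.65% in WT bleomycin against 4.26% to 4.99% in WT PBS, where the ranges are apart. Of the leukocyte miRNAs 2 rose and 1 fell in R213G and 3 rose in WT (summed share 0.677% to 0.891% in R213G bleomycin against 0.729% to 0.797% in R213G PBS, and 0.691% to 1.00% in WT bleomycin against 0.522% to 0.645% in WT PBS). Of the erythroid ones 2 fell in R213G and 3 in WT (0.225% to 0.724% in R213G bleomycin against 0.356% to 1.03% in R213G PBS, and 0.122% to 0.173% in WT bleomycin against 0.377% to 1.09% in WT PBS). Of the striated muscle ones 3 fell in R213G and 2 in WT (0.0229% to 0.0491% in R213G bleomycin against 0.0994% to 0.135% in R213G PBS, and 0.0439% to 0.0706% in WT bleomycin against 0.0670% to 0.393% in WT PBS). The part of cell makeup in the miR-30 differences was not tested.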

How the data were processed

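Per the submitters' processing notes, Bowtie2 2.3.2, SAMtools 1.9 and edgeR were used by the authors. Genome build and miRBase release: not given in the sources used here. The deposited table holds log2 values per library, and, from the authors' own tests, log2 differences with p-values and with q-values. The log2 values were taken, from the values themselves, as log2 of 1 plus a count equalized between libraries. Their linear sums ran from 18087289.8 to 24759615.3 per library. Read depths are unknown, so no counting intervals were computed. The filter asked for more than 5 equalized counts in 3 or more libraries and kept 818 of 1424 miRNAs. All 15 libraries entered 1 model with a term for each group (limma 3.58.1 in R 4.3.3, trended prior variance), and the Benjamini-Hochberg adjustment ran over the 818 within each of 5 contrasts. Differences within libraries were tested by exact permutation in Python 3.11.15. The procedures were tested on simulated data. Alternatives covered left-out libraries, scaling, filter, pseudocount, variance model, a replicate term and a tag term. Named miRNAs were the 7 members, their other strands, miR-384-5p, the 5 nearest profiles and 3 per contrast of the list of 14; miR-30f was named after its values were seen. The members and lists were chosen with earlier results of these data known.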

Additional observations from a re-analysis of the deposited data

Results flagged for a closer look

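Of 54 sets of 4 libraries looked at, 3 held a library whose gap to its nearest neighbour took up more than 0.829 of the group's range, and chance alone gives about 1 in 20. WT bleomycin replicate 3 stood at 16.60 for miR-30b-5p, above 16.41 to 16.44 in the other libraries of its group. WT bleomycin replicate 2 stood at 8.40 for miR-30c-1-3p, below 8.53 to 8.55. R213G PBS replicate 1 had a log2 gap of 3.88 between the miR-30e strands, below 4.08 to 4.10. Without WT bleomycin replicate 3 or 2 the WT differences of miR-30b-5p and miR-30c-1-3p did not pass, as with all libraries. Without R213G PBS replicate 1 the bleomycin difference in the miR-30e strand gap still passed over both genotypes. It was not tested without that library in R213G alone.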

How the results depend on the processing

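With 3 or 4 libraries a group, the 95% confidence intervals of the members' log2 differences are wider than most of the differences themselves. The falls of miR-30d-5p in R213G and WT and of miR-30e-3p in R213G held in every alternative run. Over both genotypes, the gap between the miR-30e strands passed in every run (0.35 to 0.44 over left-out libraries, exact permutation adjusted p from 0.0036 to 0.0143). That between miR-30d-5p and miR-30b-5p did too (-0.27 to -0.21). Within WT alone neither gap passed. Leaving out 1 library at a time gave 2 to 5 members called in R213G and 1 to 5 in WT. The calls over all miRNAs moved as well, from 289 to 342 in R213G and from 167 to 251 in WT. Over the other settings, which include a threshold of 0.1, these totals were 296 to 408 in R213G and 177 to 281 in WT. Array weights and the tag block each gave 4 in R213G and 4 in WT, and equal library medians gave 4 in R213G. The tag term is 0 for WT libraries, leaves the WT differences as they were and acts there through the shared variance. The miR-30e-5p to miR-30c-5p difference ranged from 0.17 to 0.25 with adjusted p from 0.0238 to 0.101, and was 0.37 within R213G and 0.068 within WT. The miR-30a strand gap ranged from 0.068 to 0.12 and passed without R213G bleomycin replicate 1 or WT PBS replicate 2 (adjusted p = 0.0469 and 0.0429). Between miR-30a-5p and miR-30c-5p the bleomycin difference was -0.031 within WT, and the genotype difference ranged from -0.018 to 0.073. Without the most abundant miRNA in the denominator the family's share averaged 13.3% in R213G bleomycin, 13.8% in R213G PBS, 12.6% in WT bleomycin and 14.2% in WT PBS. Differences that changed sign without having passed were, with equal medians, miR-30e-5p in R213G (-0.051) and miR-30c-1-3p in WT (-0.10); with quantile normalization, miR-30a-5p in R213G (0.084) and, in WT, miR-30a-3p (0.013), miR-30e-5p (0.018) and miR-30c-1-3p (-0.028); and, over left-out libraries, miR-30e-5p (-0.0080 to 0.14) and miR-30b-3p (-0.11 to 0.10) in R213G, and miR-30b-3p (-0.13 to 0.028), miR-30c-1-3p (-0.017 to 0.050) and miR-384-5p (-1.30 to 0.25) in WT. Equal medians lowered the median of all miRNAs by 0.13 log2 in R213G and 0.12 in WT. Quantile normalization gave 2 members down and 1 up in R213G, where 173 of all tested miRNAs fell and 162 rose. Same-numbered libraries of the groups compared correlated in their deviations from the group means between -0.14 and 0.26, and not every library correlated best with its own number, so the numbers were not taken to pair the samples. In R213G bleomycin against PBS, where same-numbered libraries also share a tag block, numbers 2, 3 and 4 did match best (0.14 to 0.26) and number 1 did not (-0.14). In R213G against WT after bleomycin, where no tag block is shared, numbers 1, 3 and 4 matched best (0.076 to 0.22) and number 2 did not (-0.11). The miRNAs above 0 in the bleomycin libraries also split by number. They were 1363 for numbers 1 and 3 in R213G, against 1206 and 1195 for 2 and 4. In WT they were 1342 for 1 and 3, against 1186 and 1153. The PBS libraries lacked this split, with 1091, 1094, 1312 and 1129 in R213G and 1234, 1234 and 1127 in WT. With the replicate block 3 members were called in R213G and 2 in WT, 0 between genotypes, and miR-30c-1-3p in WT was -0.013. For miR-384-5p the stricter filter gave no value. The causes were not tested.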
